A study of Mus musculus with 6 samples.

Results

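The miR-379 to miR-410 cluster is a run of microRNA (miRNA) genes inside the imprinted Dlk1-Dio3 domain of mouse chromosome 12. Its members were taken by name from the table of mature miRNAs, as both arms of 37 hairpins of the cluster. The table held 59 such mature miRNAs of 1546 in all, from 35 of the 37 hairpins. The data were 6 small RNA libraries from the livers of male C57BL/6 mice. The 3 NC libraries came from mice on a normal diet, and the 3 MAFLD libraries (metabolic dysfunction-associated fatty liver disease) from mice on a high-fat diet. Each diet was given to 6 mice for 16 weeks, from an age of 8 weeks. The labels number the libraries of a diet without saying that each is 1 mouse, so the p-values measure the spread between libraries. RNA of both groups was pretreated to remove modifications that block adapter ligation or reverse transcription, and each library came from whole liver, so that fewer cells of a type and less RNA per cell cannot be told apart. The question was which members differ in level, arm use or make-up between the livers of the 2 diets, with miR-300-3p as the miRNA the study followed.

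In the Dlk1-Dio3 domain the miRNA genes are read from the chromosome inherited from the mother, while Dlk1, Rtl1 and Dio3 are read from that inherited from the father. A long noncoding transcript is thought to carry many of the hairpins, and each hairpin is cut into a 5p and a 3p arm, one of which usually stays in the silencing complex. The seed, bases 2 to 8 of the mature miRNA, sets most of its pairing with target messenger RNAs. In the adult mouse the cluster is known best from the brain, where miR-134-5p limits dendritic spine size, and its loss is known to impair the metabolic adaptation of newborn mice. In adult liver miR-379 is known as a target of the glucocorticoid receptor that affects lipoprotein secretion.

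In the GRCm38 annotation the 34 hairpins with a RefSeq entry lay on chr12:109709060-109743795, a stretch of 34.736 kb. All were on the plus strand except Mir299b, which is antisense to Mir299a. The first, Mir379 (chr12:109709060-109709125), was followed by Mir411 at 1.115 kb, Mir376b at 14.398 kb, Mir300 (chr12:109724313-109724391) at 15.253 kb and Mir381 (chr12:109726822-109726896) at 17.762 kb. These and 17 others, 22 in all, overlapped no annotated gene besides hairpins of the cluster. The remaining 12 lay within Mirg, a long noncoding RNA gene (chr12:109729764-109749460), 4 of them in its introns and 8 in or across its exons. Mir541 (chr12:109742409-109742498) was intronic, and Mir382 (chr12:109733771-109733846) spanned an exon boundary.

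The mature sequences below (RefSeq, GRCm38.p6) are those of the members with the highest levels or the lowest p-values, and of near copies that the reads must be told apart from. Each is written 5′ to 3′ with the seed in capitals.
miR-381-3p: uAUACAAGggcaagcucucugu
miR-300-3p: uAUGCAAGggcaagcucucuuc
miR-379-5p: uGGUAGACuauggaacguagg
miR-411-5p: uAGUAGACcguauagcguacg
miR-1193-5p: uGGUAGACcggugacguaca
miR-541-5p: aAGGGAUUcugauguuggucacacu
miR-382-5p: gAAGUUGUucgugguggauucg
miR-382-3p: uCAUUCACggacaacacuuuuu
miR-376b-5p: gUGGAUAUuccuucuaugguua
miR-376b-3p: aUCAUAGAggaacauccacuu
miR-376a-3p: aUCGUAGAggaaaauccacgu
miR-299a-3p: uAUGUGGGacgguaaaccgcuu
miR-299b-3p: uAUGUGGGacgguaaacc

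The RefSeq table held 56 of the 59 members. They carried 52 different seeds, and only 4 seeds belonged to more than 1 member, so the cluster is mostly a set of different targeting sequences rather than copies of one. MiR-381-3p and miR-300-3p differed at 3 of 22 bases, A4G, G21U and U22C, counted from 1 at the 5′ end with the base of miR-381-3p first. The first of these lies in the seed, so the pair does not share one. MiR-379-5p and miR-411-5p differed at 7 of 21 bases, of which G2A (miR-379-5p first) is in the seed. MiR-379-5p shared its seed with miR-1193-5p, which had no read in any library. MiR-376b-3p and miR-376a-3p differed by A4G, C13A and U20G (miR-376b-3p first), and miR-376a-3p was at 0 as well. MiR-299b-3p is a shorter copy of miR-299a-3p: the table gave both arms of these hairpins the same reads in every library (34 and 8 reads in all), so they were counted once wherever members were summed. Outside the cluster, 6 members shared a seed with other listed miRNAs, among them miR-329-3p with miR-362-3p, which stood at a mean of 11.6 CPM against 1.30 CPM for the member.

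Levels are given as CPM, the reads of a miRNA scaled so that those of all listed miRNAs have the same sum in each library. The NC libraries held 1336935 to 2549598 such reads and the MAFLD libraries 1534569 to 4685712, so that 3 reads, used as the lowest level a library can resolve, stood for 0.640 CPM in MAFLD 2 and 2.24 CPM in NC 3. The labelled tissue was borne out by miR-122-5p, the abundant miRNA of hepatocytes, with a mean of 62537 CPM. The summed levels of the hepatocyte list were 102722 to 167007 CPM in NC and 147868 to 176512 in MAFLD. NC 1 and NC 2 stood apart from the other 4 libraries in the summed level of brain miRNAs (mostly miR-9-5p). That sum is given beside the results below. Some miRNAs outside the brain list set these 2 libraries apart as well. MiR-194-5p stood at 2218 and 2519 CPM in NC 1 and NC 2 and at 4345 to 7706 CPM in the others. MiR-199a-5p stood at 115 and 168 CPM against 277 to 402 CPM. How many miRNAs did so was not counted.

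The cluster was a small fraction of the liver miRNAs. It took 574, 974 and 576 reads in NC 1 to 3 and 384, 321 and 320 in MAFLD 1 to 3. That was 0.0225%, 0.0621% and 0.0431% of the miRNA reads in NC and 0.0144%, 0.00685% and 0.0209% in MAFLD. Summed over the members, the level was 225, 621 and 430.8 CPM in the NC libraries (426 ± 198, SD, n = 3) and 144, 68.5 and 209 CPM in the MAFLD libraries (140 ± 70.1, SD, n = 3). The groups did not overlap, but the margin was narrow: the 95% Wilson intervals of NC 1 (207 to 244 CPM) and MAFLD 3 (187 to 233 CPM), which cover counting error only, overlapped. Leaving out the most abundant pair, miR-381-3p and miR-379-5p, the rest of the cluster summed to 91.0, 207 and 168 CPM in NC and 65.7, 27.1 and 89.9 CPM in MAFLD. Here NC 1 and MAFLD 3 were nearly level, and NC 2 and NC 3 were above every MAFLD library.

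Most members were near the limit of detection. Of the 59, 3 had no read in any library (miR-1193-5p, miR-494-5p and miR-376a-3p), 56 had a read in at least 1 library and 18 had a read in all 6. In all, 34 members had fewer than 10 reads over the 6 libraries together. The number of members with a read was 37, 44 and 38 in NC and 33, 34 and 31 in MAFLD. Since deeper libraries show more members, the number expected at the smallest depth was also computed: 29.6, 42.2 and 38.0 in NC and 27.4, 19.8 and 29.6 in MAFLD. At equal depth NC 1 was level with MAFLD 3, NC 2 and NC 3 were above all MAFLD libraries, and MAFLD 2, the deepest library, was lowest.

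The test was run on miRNAs whose 6 libraries averaged 1 CPM or more, 501 in all, of which 23 were members (22 counting miR-299b-3p once). The other 33 members with reads had at most 11 reads in all. Among these, the highest was miR-323-3p, with 4, 4 and 0 reads in NC and 0, 1 and 2 in MAFLD. MiR-410-3p, at the far end of the cluster, had 2, 5 and 0 reads in NC and 0, 0 and 2 in MAFLD. MiR-154-5p was even, with 1, 1 and 3 reads in NC and 2, 2 and 1 in MAFLD. MiR-667-3p went the other way in 1 library, with 5 reads in MAFLD 2 and none elsewhere. These counts are too small to show a difference at this depth, and no difference was read from them.

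Over the 23 members tested, none passed an adjusted p of 0.05 with limma on log2(CPM + 1), against 1 of all 501 miRNAs (0.2%). The log2 fold changes (MAFLD minus NC) ran from -2.36 to 0.20 with a median of -1.16, while the median over all 501 was 0.43. MiR-381-3p, miR-382-5p and miR-300-3p stood at the low end, and 22 of the 23 were below 0, where 28.7% of all miRNAs tested were. With the copy miR-299b-3p left out, 21 of 22 were below 0 and the median was -1.08. At an unadjusted p under 0.05, 8 members were lower in MAFLD (4.59% of all) and none was higher (13.4% of all). In 7 members all NC libraries were above all MAFLD libraries (4.19% of all), and in none below (15.2% of all). A member that cleared the level filter only through its NC libraries had to be lower in MAFLD, so these counts describe the members that could be tested. Without the filter, 12 of the 56 members with reads were lower at an unadjusted p under 0.05 (2.25% of all 1467 miRNAs with reads). There miR-381-3p passed an adjusted p of 0.05 (0.75% of all), and the median was -0.43 for members and 0.15 for all.

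The result of the test turned on its form. DESeq2 on the recovered whole reads put 7 members past an adjusted p of 0.05, all lower in MAFLD, where 4.57% of the miRNAs it tested were called lower. They were miR-300-3p, miR-379-5p, miR-381-3p, miR-382-3p, miR-382-5p, miR-411-5p and miR-541-5p. It called 28 miRNAs in all. EdgeR on the same reads called 1 miRNA in all at that threshold and no member, and 13 members were lower at an unadjusted p under 0.05 (9.98% of all). Both count tools and the scalings by median ratio, by quantiles or without the most abundant miRNA moved the median of all miRNAs toward 0, to between -0.0049 and 0.16. The members' median less that of all miRNAs then ran from -1.93 to -1.52, against -1.59 with CPM. Over all miRNAs the calls at an unadjusted p under 0.05 split into 23 lower and 67 higher with CPM, and into 45 and 36 with median-ratio scaling, where 11 members were lower and none higher. Without NC 3, limma put 4 of the 23 members past the threshold (miR-329-5p, miR-381-3p and both arms of miR-382), but also 22.8% of all miRNAs tested, so that count says nothing of the members. Without MAFLD 3 it put miR-381-3p past it, with 0.599% of all.

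**Figure D1:**
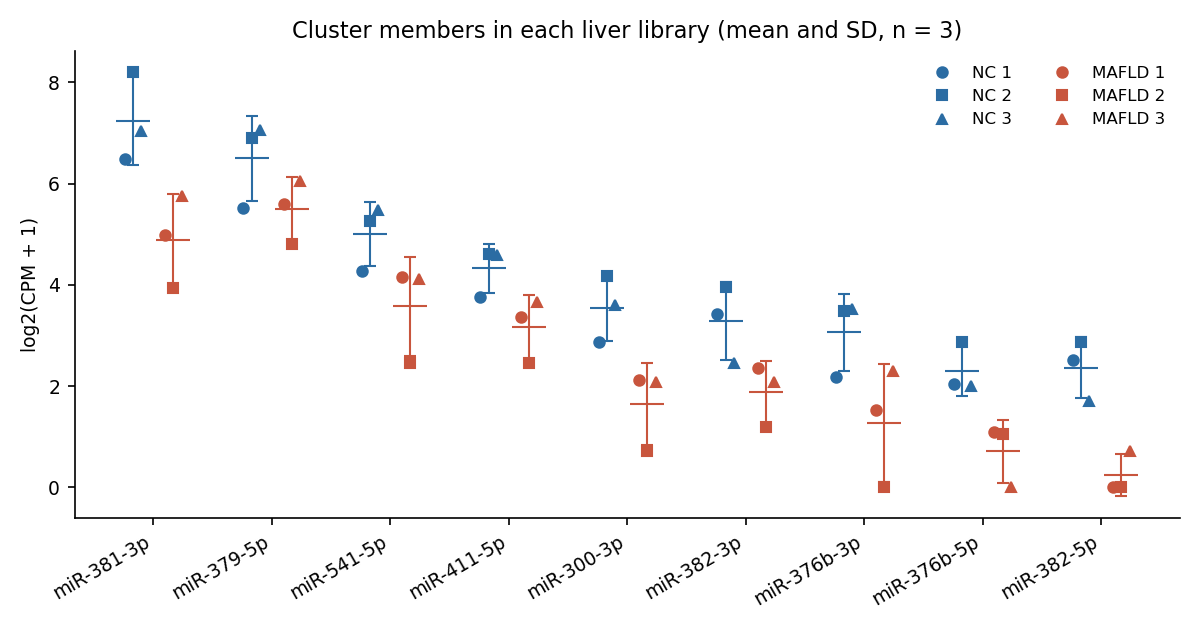
The 9 members with a mean of at least 10 CPM or an unadjusted p under 0.05 are plotted by library as log2(CPM + 1), with the mean and SD of each group (n = 3). Blue points are NC and red points MAFLD libraries; MAFLD 2 is the lowest or ties for it in 8 of the 9, and the groups overlap in miR-379-5p and miR-376b-3p.

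MiR-381-3p had the highest mean level of all members and, with limma, the lowest log2 fold change of those tested. Its level was 89.0, 294 and 131 CPM in NC 1 to 3 and 30.8, 14.3 and 52.8 CPM in MAFLD 1 to 3, from 227, 462, 175, 82, 67 and 81 reads. Every NC library was above every MAFLD library, and NC 2 stood highest by a wide margin. The group means were 171 ± 109 and 32.6 ± 19.3 CPM (SD, n = 3). The log2 fold change was -2.36 ± 0.54 (SE), which is 5.12-fold lower on the log2(CPM + 1) scale, with an adjusted p of 0.0928. It was the lowest adjusted p of any member. Over 20 alternative settings the log2 fold change lay between -3.16 and -1.88, and the adjusted p was under 0.05 in 8 of them.

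MiR-300-3p, the near copy of miR-381-3p and the miRNA the study followed, was far less abundant. It stood at 6.28, 17.2 and 11.2 CPM in NC and 3.38, 0.640 and 3.26 CPM in MAFLD, from 16, 27 and 15 reads and 9, 3 and 5 reads. The groups did not overlap, and the order of the libraries was NC 2, NC 3, NC 1 and then the MAFLD libraries, the order that miR-381-3p had among NC. The log2 fold change was -1.91 ± 0.58 (SE, adjusted p = 0.152), and -2.39 and -1.13 with pseudocounts of 0.1 and 5. The share of miR-300-3p among the reads of both was 6.58%, 5.52% and 7.89% in NC and 9.89%, 4.29% and 5.81% in MAFLD. The shares of the groups overlapped, with the highest and the lowest both in MAFLD. MiR-300-3p and miR-381-3p differ at 3 of 22 bases, and how reads were assigned between them is not given. The reads of each were taken as listed, and whether some belong to the other was not tested.

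The next most abundant members are read from opposite ends of the cluster. MiR-379-5p, from the first hairpin, stood at 45.1, 119 and 132 CPM in NC and 47.6, 27.1 and 65.8 CPM in MAFLD. NC 1 was below MAFLD 1 and MAFLD 3, so the groups overlapped, and the log2 fold change of -1.01 ± 0.50 (SE) had an adjusted p of 0.298. Its neighbour miR-411-5p stood at 12.6, 23.6 and 23.2 CPM in NC and 9.38, 4.48 and 11.7 CPM in MAFLD. These did not overlap, though NC 1 and MAFLD 3 were close (log2 fold change -1.16 ± 0.51, SE, adjusted p = 0.247). MiR-541-5p, from the other end, stood at 18.4, 37.6 and 43.4 CPM in NC and 16.9, 4.48 and 16.3 CPM in MAFLD. Here too NC 1 lay just above the MAFLD libraries (log2 fold change -1.43 ± 0.55, SE, adjusted p = 0.212). In all 3 of these miRNAs NC 1 was the lowest NC library and MAFLD 2 the lowest of all. Without MAFLD 2 the log2 fold change was -0.67 for miR-379-5p, -0.80 for miR-411-5p and -0.87 for miR-541-5p.

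Both arms of miR-382 and miR-376b were abundant enough to be tested. MiR-382-5p had 12, 10 and 3 reads in NC and 0, 0 and 1 in MAFLD, which gave 4.71, 6.37 and 2.24 CPM in NC and 0.652 CPM in MAFLD 3. The other MAFLD libraries had no read, and the log2 fold change of -2.12 ± 0.60 (SE, adjusted p = 0.152) was -4.41 with a pseudocount of 0.1 and -0.83 with 5. Its partner miR-382-3p had 25, 23 and 6 reads in NC and 11, 6 and 5 in MAFLD, or 9.81, 14.7 and 4.49 CPM against 4.13, 1.28 and 3.26 CPM (log2 fold change -1.41 ± 0.57, SE, adjusted p = 0.215). Neither arm overlapped between groups, and in both NC 3 was the lowest NC library. MiR-376b belongs to a family of hairpins known for A-to-I editing in brain. Its 3p arm stood at 3.53, 10.2 and 10.5 CPM in NC and 1.88, 0 and 3.91 CPM in MAFLD (log2 fold change -1.79 ± 0.66, SE, adjusted p = 0.208). Its 5p arm stood at 3.14, 6.37 and 2.99 CPM in NC and 1.13, 1.07 and 0 CPM in MAFLD (log2 fold change -1.60 ± 0.59, SE, adjusted p = 0.208). The groups overlapped in the 3p arm, through NC 1 and MAFLD 3, and not in the 5p arm. With pseudocounts of 0.1 and 5 the log2 fold change was -2.99 and -0.90 for the 3p arm, -2.94 and -0.66 for the 5p arm and -1.70 and -0.85 for miR-382-3p. Without MAFLD 2 that of miR-376b-3p was -1.15.

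**Figure D2:**
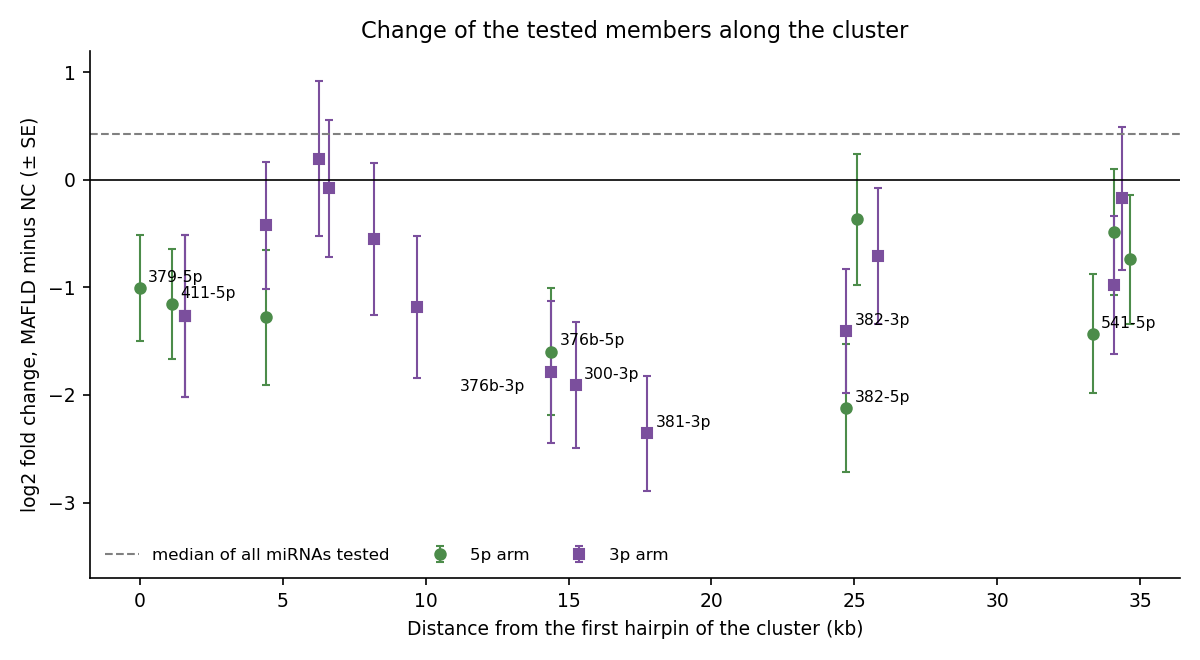
The log2 fold change (MAFLD minus NC, ± SE) of the 23 tested members is plotted against the distance of their hairpin from the first hairpin in kb, with 5p arms in green and 3p arms in purple. The 5 lowest values are at 14.398 to 24.711 kb, miR-494-3p at 0.20 is the only member above 0, and all 23 lie below the dashed median of all miRNAs tested (0.43).

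The order and choice of examples among the remaining 14 tested members were made after their values were seen. MiR-329-5p stood at 7.06, 17.2 and 2.99 CPM in NC and 2.25, 1.28 and 4.56 CPM in MAFLD, with NC 3 inside the MAFLD range (log2 fold change -1.28, adjusted p = 0.298). MiR-299a-3p had 1 read in NC 1, 11 in NC 2 and 12 in NC 3, against 8, 1 and 1 in MAFLD, so NC 1 and MAFLD 1 crossed the groups. MiR-134-5p, the regulator of dendritic spines, was nearly level between diets, at 3.92, 3.19 and 10.5 CPM in NC and 3.00, 1.92 and 8.47 CPM in MAFLD. NC 3 and MAFLD 3 were the highest of their groups in miR-134-5p, and the log2 fold change was -0.36 ± 0.61 (SE). MiR-494-3p was the only member with a positive value, at 0.392, 1.91 and 4.49 CPM in NC and 1.88, 0.427 and 7.17 CPM in MAFLD (log2 fold change 0.20 ± 0.72, SE). Of the last hairpins, miR-409-3p was highest in NC 2 with 20 reads of 44 in all, and its log2 fold change was -0.98 ± 0.64 (SE). MiR-409-5p had 4, 7 and 8 reads in NC and 4, 9 and 6 in MAFLD (log2 fold change -0.48 ± 0.59, SE). MiR-410-5p, from the last hairpin, had 3, 5 and 5 reads in NC and 1, 6 and 3 in MAFLD (-0.74 ± 0.60, SE). Both overlapped between groups. MiR-495-3p had 6, 8 and 2 reads in NC and 0, 1 and 4 in MAFLD (-1.18 ± 0.66, SE), with NC 3 inside the MAFLD range. MiR-485-3p had 2, 3 and 4 reads against 5, 0 and 1 (-0.71 ± 0.63, SE), and miR-329-3p 2, 3 and 3 against 3, 2 and 2 (-0.42 ± 0.59, SE). MiR-543-3p had no read in NC 1, MAFLD 2 and MAFLD 3, and 2, 4 and 5 reads in NC 2, NC 3 and MAFLD 1 (-0.55 ± 0.71, SE). In these the groups overlapped as well. MiR-369-3p (-0.17) and miR-1193-3p (-0.08) had the values nearest to 0 on the log2 scale, and miR-299b-3p had those of miR-299a-3p. None of the 14 had an unadjusted p under 0.05.

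**Figure D3:**
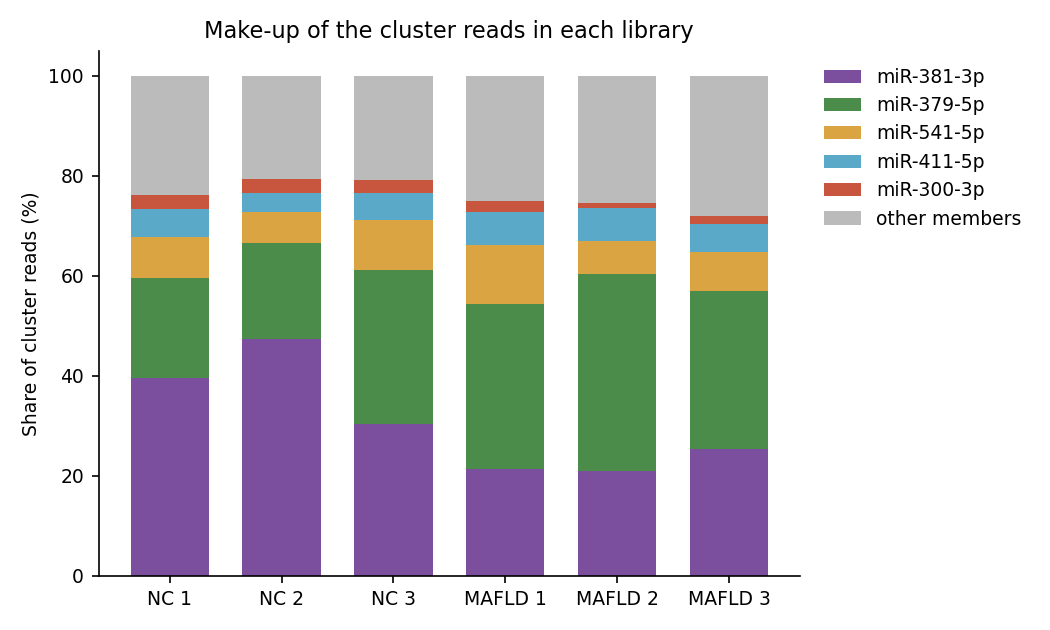
Bars show how the cluster reads of each library divide among members, in percent of the reads of all members with miR-299b left out. The miR-381-3p share is 30.4% to 47.4% in the NC libraries and 20.9% to 25.3% in the MAFLD libraries.

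The make-up of the cluster reads differed between the libraries as well as their sum. MiR-381-3p took 39.5%, 47.4% and 30.4% of the cluster reads in NC 1 to 3 and 21.4%, 20.9% and 25.3% in MAFLD 1 to 3, without overlap. The shares of a library add up to the whole, so a lower miR-381-3p share by itself raises those of the other members. Shares given below as higher in MAFLD are thus not separate results, and shares without miR-381-3p were not compared. MiR-379-5p took 20.03%, 19.2% and 30.7% in NC and 33.1%, 39.6% and 31.6% in MAFLD, also without overlap, although NC 3 was close to MAFLD 3. MiR-411-5p took 5.57%, 3.80% and 5.38% in NC and 6.51%, 6.54% and 5.62% in MAFLD, higher in MAFLD without overlap. MiR-300-3p took 2.79%, 2.77% and 2.60% in NC and 2.34%, 0.935% and 1.56% in MAFLD, lower in MAFLD without overlap. These shares rest on 3 to 37 reads a library, and within each of the 2 members the Wilson intervals of NC 3 and MAFLD 1 overlapped. MiR-541-5p took 8.19%, 6.06% and 10.1% in NC and 11.7%, 6.54% and 7.81% in MAFLD, so that the groups overlapped. The ratio of miR-381-3p to miR-379-5p reads, which does not depend on library scaling, was 1.97, 2.47 and 0.989 in NC and 0.646, 0.528 and 0.802 in MAFLD. The log2 ratio differed by -1.38 (MAFLD minus NC), with a two-sided exact permutation p of 0.1, the smallest that 3 against 3 libraries allow. The ratio was chosen after the values were seen, and reads within a library share its preparation. The members outside the 5 leading ones together took 20.7% to 23.9% of the cluster reads in NC and 25.0% to 28.1% in MAFLD.

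**Figure D4:**
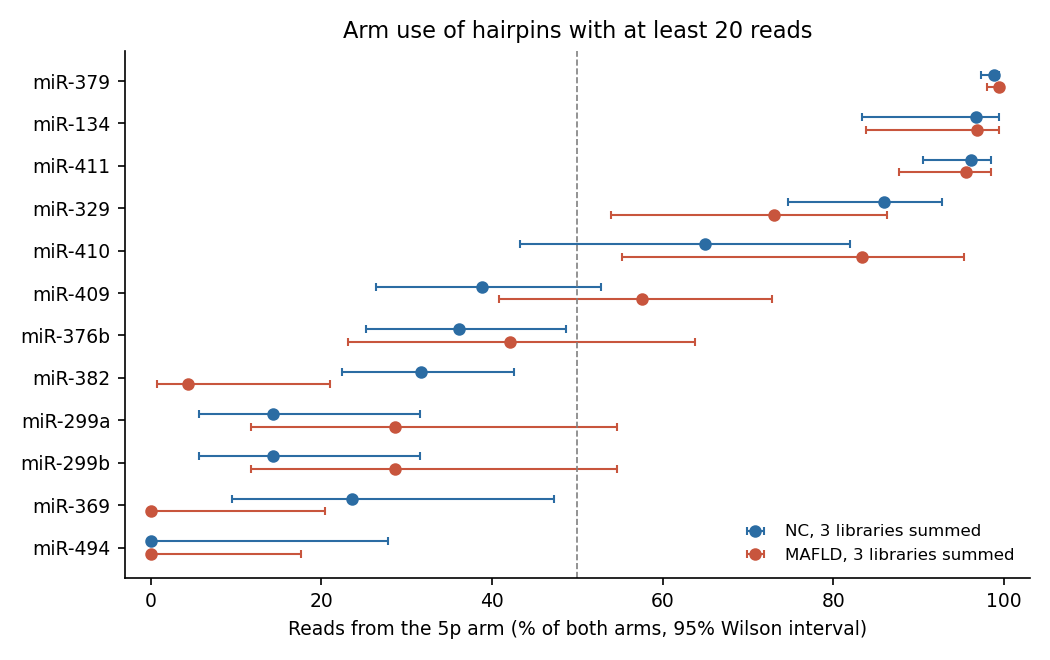
Points give the percent of reads from the 5p arm for the 12 hairpins with both arms listed and at least 20 reads, summed over the 3 libraries of each group, with 95% Wilson intervals for counting error. Hairpins range from all 3p (miR-494) to nearly all 5p (miR-379), and the intervals of NC and MAFLD overlap in every hairpin shown except miR-382.

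Arm use varied widely along the cluster. Over all members the 5p arms had 1562 reads and the 3p arms 1587, nearly equal, but single hairpins were mostly 1-sided. Of the 12 hairpins with both arms listed and at least 20 reads in all, with miR-299a and miR-299b among them, 5 gave mostly 5p and 7 mostly 3p reads. MiR-379 gave 834 reads of its 5p and 8 of its 3p arm, miR-411 gave 164 and 7, and miR-134 gave 59 and 2. At the other end, miR-494 gave no 5p and 28 3p reads, and miR-369 gave 4 and 28. MiR-409 (38 and 44 reads) and miR-376b (30 and 50) used both arms. The most abundant member, miR-381-3p, and miR-541-5p could not be placed on this scale, since only 1 arm of each was listed.

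Only miR-379 and miR-411 had at least 20 reads in every library, so arm use could be compared between diets for these alone. The 5p share of miR-379 was 98.3%, 97.9% and 100% in NC and 100%, 99.2% and 99.0% in MAFLD, a difference of 0.68 percentage points (two-sided exact permutation p = 0.5, adjusted over 2 hairpins 0.8). That of miR-411 was 100%, 92.5% and 96.9% in NC and 100%, 95.5% and 90.0% in MAFLD, a difference of -1.31 points (exact permutation p = 0.8). Neither separated the groups, where 13% of 100 hairpins outside the cluster did. In the library with the fewest reads of miR-411, MAFLD 3, the 95% Wilson interval ran from 69.9% to 97.2%, so differences of a few points were not detectable at this depth. In the summed reads miR-382 stood out, with 25 reads from the 5p and 54 from the 3p arm in NC (31.6% 5p, 95% Wilson interval 22.4% to 42.5%) and 1 and 22 in MAFLD (4.35%, 0.772% to 21.0%). By library its 5p and 3p reads were 12 and 25, 10 and 23, and 3 and 6 in NC 1 to 3. In MAFLD 1 to 3 they were 0 and 11, 0 and 6, and 1 and 5. The intervals of summed reads leave out the spread between libraries, and this hairpin was singled out after its values were seen.

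The members went up and down together across the libraries only in part. Counting miR-299b-3p once, 11 of the 22 tested members were highest in NC 3, 9 in NC 2, none in NC 1 and 2 in a MAFLD library. The lowest library was MAFLD 2 in 14. Against the mean of the own group, 20 members were above it in NC 2 and 14 in NC 3, but only 2 in NC 1. In MAFLD the numbers were 14 for MAFLD 1, 3 for MAFLD 2 and 18 for MAFLD 3. NC 1 and MAFLD 2 were thus low for nearly all members at once, while NC 2 and NC 3 divided them. NC 3 was above the other NC libraries for 12 members, among them miR-379-5p, miR-541-5p and miR-134-5p, and below both for 7. Those 7 were both arms of miR-382, miR-329-5p, miR-376b-5p, miR-409-3p, miR-495-3p and miR-369-3p, and they lie on hairpins scattered over the cluster. NC 1 was above the whole MAFLD range for 9 of the 22, and NC 2 and NC 3 for 17 each. Of all miRNAs tested, 27.1% were above that range in NC 3. The other counts of this paragraph were made for members only, so they do not set the members apart from other miRNAs.

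**Figure D5:**
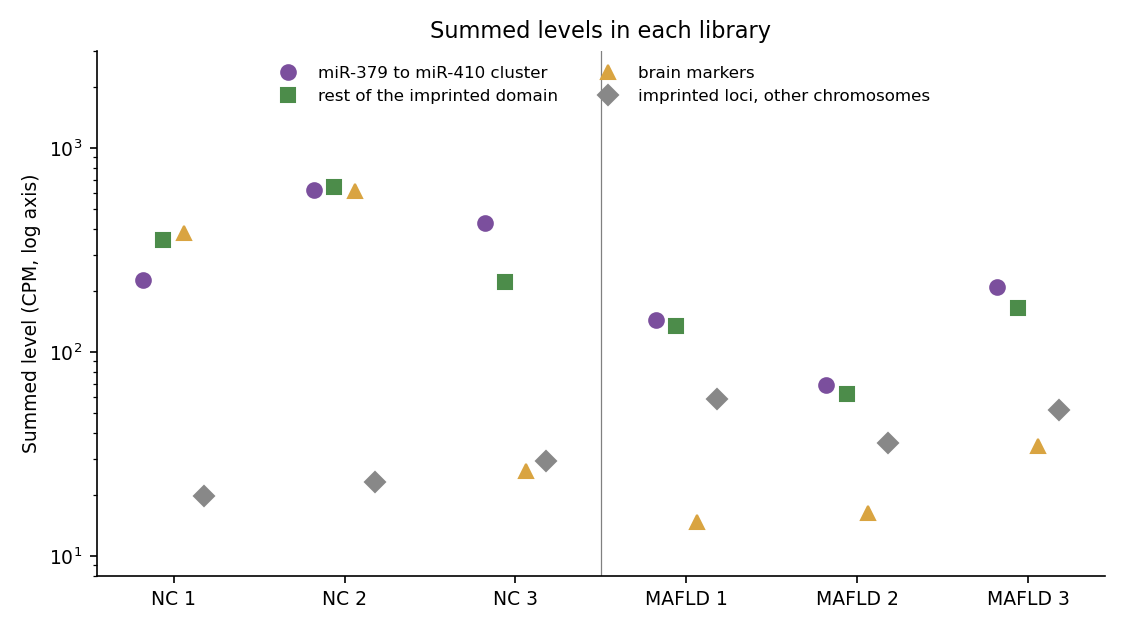
Summed levels in CPM on a log axis are shown for each library: the cluster (purple), other miRNAs of the same imprinted domain (green), brain markers (yellow) and imprinted loci on other chromosomes (grey). MAFLD 2 is lowest for the cluster and its domain, and brain markers are at 383 and 619 CPM in NC 1 and NC 2 and at most 34.5 CPM in the other 4 libraries.

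The other miRNAs of the Dlk1-Dio3 domain, which lie outside this cluster, had lower levels in MAFLD as well. The list used for them was fixed by name and may not be complete. It held 32 miRNAs of the table, 1 at 0 in all libraries, and 10 were tested. All 10 had negative log2 fold changes (median -1.46, from -2.001 to -0.03), 6 were lower at an unadjusted p under 0.05, none passed an adjusted p of 0.05, and 5 did not overlap between groups. MiR-127-3p, which is antisense to the paternally expressed gene Rtl1, stood at 269, 445 and 120 CPM in NC and 82.9, 41.4 and 98.4 CPM in MAFLD (log2 fold change -1.79, adjusted p = 0.152). MiR-434-5p, also opposite Rtl1, stood at 34.1, 91.1 and 41.9 CPM in NC and 17.6, 4.48 and 20.2 CPM in MAFLD (log2 fold change -2.001, adjusted p = 0.152). MiR-136-3p had a log2 fold change of -1.29 and miR-341-3p of -1.64. The domain summed to 355, 645 and 219 CPM in NC and 135, 62.5 and 164 CPM in MAFLD, and unlike in the cluster NC 3 was its lowest NC library. The list of imprinted miRNA loci on other chromosomes was short (miR-296, miR-298, miR-335, miR-483 and miR-675), and further such loci were not examined. Its few tested values had the direction of most miRNAs tested. Of 8 listed miRNAs, 2 at 0, the 3 tested were above 0 (median 0.93), with both arms of miR-335 among them. MiR-335-3p, within the imprinted gene Mest, was higher in MAFLD at 1.17 on the log2 scale (adjusted p = 0.212) without overlap. Of all miRNAs tested, 28.7% were below 0, 4.59% were lower at an unadjusted p under 0.05 and 4.19% were lower without overlap. Higher without overlap were 15.2%, and the median was 0.43. These comparisons share all 6 libraries with that of the cluster.

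The sum of the brain miRNAs was highest in 2 of the NC libraries. All 9 miRNAs of the brain list were in the table, and 2 of 7 tested were lower at an unadjusted p under 0.05 (4.59% of all). Their summed level was 383, 619 and 26.2 CPM in NC and 14.6, 16.2 and 34.5 CPM in MAFLD. MiR-9-5p, a miRNA of neural cells, made up most of it, with 344, 530 and 9.72 CPM in NC and 5.25, 4.48 and 12.4 CPM in MAFLD. MiR-124-3p, a miRNA of neurons, stood at 13.7 and 28.7 CPM in NC 1 and NC 2, at 0 in NC 3, MAFLD 1 and MAFLD 2 and at 0.652 CPM in MAFLD 3. MiR-9-3p, miR-138-5p, miR-129-5p and, with NC 3 close, miR-383-5p were also highest in NC 1 and NC 2. MiR-153-3p, miR-219a-5p and miR-137-3p were not, the last at 2.35, 7.01 and 7.48 CPM in NC and 3.75, 5.55 and 5.86 CPM in MAFLD. How far the cluster's levels go with brain miRNAs was not tested. Without NC 1 and NC 2, 18 of 23 members were higher in NC 3 than in every MAFLD library, as were 27.1% of all miRNAs tested. At an unadjusted p under 0.05, 7 members and 4.59% of all were lower in MAFLD, and no miRNA passed an adjusted p of 0.05. The member median was then -1.26 against -0.02 for all miRNAs, from a single NC library that is assumed to vary like the others. NC 1, with a high brain sum, was the lowest NC library for the cluster sum, and NC 3, with a low one, was the second lowest. NC 3 was the lowest NC library for the sum of the rest of the domain and for 7 of the 22 tested members.

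The other marker lists did not separate the groups in their sums. Muscle miRNAs summed to 52.2 to 242 CPM in NC and 37.5 to 230 CPM in MAFLD (6 of 7 listed), and erythroid miRNAs to 602 to 1212 and 431.3 to 999.6 CPM (4 of 4). Immune cell miRNAs summed to 135 to 247 and 190 to 353 CPM (5 of 5), mesenchymal miRNAs to 12612 to 30033 and 19775 to 26950 CPM (5 of 5), and pancreas miRNAs to 1.57 to 6.73 and 2.63 to 9.77 CPM (4 of 4). Of the tested miRNAs on these 5 lists none was lower in MAFLD at an unadjusted p under 0.05 (4.59% of all). At that p 1 immune and 2 mesenchymal miRNAs were higher (13.4% of all). The mesenchymal sum was mostly miR-143-3p (12080 to 28509 CPM in NC), so it hardly reflects the 2 that were higher, miR-199a-3p and miR-214-3p (log2 fold changes 0.87 and 1.29). Of the 4 hepatocyte miRNAs, 2 were higher in MAFLD without overlap (15.2% of all).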

How the data were processed

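Small RNA from mouse liver was sequenced by the authors on an Illumina NextSeq 500. According to the submitters' processing notes FastQC, cutadapt, Bowtie and edgeR were used with GRCm38, and their settings are not given in the sources used here. For 1546 mature miRNAs CPM values were deposited, each library having been scaled by the authors to its reads on all listed miRNAs. Dividing by the smallest value above 0 gave whole reads for 100% of values (tolerance 0.02), from 1336935 to 4685712 reads a library. Groups came from the labels, with 3 libraries each. limma 3.58.1 in R 4.3.3 (eBayes with a trend) was run on log2(CPM + 1) over 501 miRNAs with a mean of 1 CPM or more. Two-sided p-values were adjusted over all of them by the Benjamini-Hochberg method (threshold 0.05). edgeR 4.0.16, DESeq2 1.42.0 and other scalings, filters and pseudocounts were alternatives, and the code was tested on simulated data. Exact permutation tests used scipy 1.17.1. Intervals are 95% Wilson intervals and cover counting error only.

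By rule, the text names miR-300-3p, every member averaging 10 CPM or more and every member with an unadjusted p under 0.05. Other miRNAs were picked with their values in view. The members, the lists (brain, muscle, erythroid, immune, mesenchymal, pancreas, hepatocyte, other miRNAs of the domain, other imprinted loci) and the tests were chosen with earlier results of these data known. MiR-539 and miR-453 were not analysed here, and the hairpin of miR-544 was not placed. Positions are from RefSeq and GENCODE annotation of GRCm38.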

Additional observations from a re-analysis of the deposited data

How the results depend on the processing

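In 20 alternative settings no member was higher in MAFLD at an unadjusted p under 0.05, no member named by the rule changed direction, and the members' median was below that of all miRNAs, by a difference of -2.04 to -0.58 on the log2 scale. With limma, 0 members passed an adjusted p of 0.05. That count was 1 without a level filter, with median-ratio scaling or without miR-148a-3p (miR-381-3p in each), 7 with DESeq2 and 9 once NC 3 was left out under median-ratio scaling, where 28 and 36 miRNAs in all passed. Members lower at an unadjusted p under 0.05 numbered 8, and 13 with edgeR or DESeq2. Of all 501 miRNAs, 23 were so with limma, 50 with edgeR and 54 with DESeq2. Members lower in MAFLD without overlap numbered 7, and 11 with median-ratio scaling, without miR-148a-3p, with edgeR or with DESeq2. In those settings 46, 38, 41 and 46 of all miRNAs tested were so, against 21 in the main one, so the rise was not particular to the members. The number was 14 once NC 3 was left out under median-ratio scaling, and 18 without NC 1 and NC 2. Without NC 1 and NC 2, 27.1% of all miRNAs tested were so, against 4.19% with all libraries, and 90 of 501 were so in the setting before. With a filter at 10 CPM, 4 members were left, of which 2 were lower at an unadjusted p under 0.05 and 3 did not overlap. Of all 238 miRNAs left there, 7 were lower at that p and 7 were lower without overlap. The median of -1.16 was -0.43 without a filter, -1.90 with edgeR and -1.93 with DESeq2. Leaving out each library in turn gave 0 to 4 members past an adjusted p of 0.05 (4 without NC 3, where 114 of all 501 passed, and 1 without MAFLD 3, where 3 did), and 4 to 10 lower at an unadjusted p under 0.05 (4 without MAFLD 2, 5 without NC 2). Of all 501 miRNAs, 14 were lower at that p without MAFLD 2 and 13 without NC 2. Leaving out each library gave 7 to 15 members lower without overlap (15 without NC 1, 11 without MAFLD 3), where 46 and 40 of all miRNAs were so. It also gave 0 to 1 hairpins whose 5p share did not overlap (1 without NC 3). The numbers 1 to 3 do not pair libraries: deviations from the group means correlated at 0.012, -0.020 and -0.046 between same-numbered libraries, which came from different mice. With the replicate block 1 member passed an adjusted p of 0.05, miR-381-3p (0.032). For the 9 members named by the rule, 23 of 175 refits passed an adjusted p of 0.05, all in the same direction as in the report, where none of the 9 passed. The causes were not tested. At these depths 37 of the 59 members had at most 11 reads over the 6 libraries, and no value here separates diet from other differences between the libraries.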
